A study of Mus musculus with 6 samples.

Results

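Cells dispose of reactive oxygen species with a small set of enzyme families, and their genes were followed here in the cochlear modiolus of mice with degenerated spiral ganglion neurons (SGN). Members are protein-coding genes of the glutathione transferases (Gsta, Gstm, Gsto, Gstp, Gstk, Gstt and Mgst), glutathione peroxidases (Gpx), peroxiredoxins (Prdx), thioredoxins (Txn), thioredoxin reductases (Txnrd) and superoxide dismutases (Sod), together with Cat, Nqo1, Hmox1, Gclc, Gclm, Gsr and Gss. Single genes were taken by symbol and not by a measured value, but the set itself was chosen with earlier results of these data known. In the mouse annotation 54 genes bear such a symbol, and 43 of them were measured, among 33676 genes with at least 1 transcript in the table. The other 11, namely Gstm3, Gstp2, Gstp3, Mgst3, Prdx6b, Sod1, Sod2, Sod3, Txn1, Txnrd3 and Nqo1, are not analysed here, so that neither the superoxide dismutases nor cytosolic thioredoxin can be described.

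RNA of the modiolus, the central pillar of the cochlea in which the SGN lie, was sequenced in 3 control and 3 degenerated libraries of C57BL/6 mice. By the study's methods, males of 8 weeks were used to establish the model, so this is not the age at sampling in degenerated mice. The study describes this degeneration in wild-type mice. The control group received saline. The degenerated group received 1 g/kg kanamycin sulfate and 0.4 g/kg furosemide, which destroy hair cells, and its SGN were examined on day 30. The sources used here do not say whether a library came from 1 animal or from several, so p-values measure only the spread between these libraries.

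Hydrogen peroxide is removed by catalase in peroxisomes, by peroxiredoxins, which are recharged by thioredoxin and its NADPH-dependent reductases, and by glutathione peroxidases, which draw on glutathione. Glutathione is built by glutamate-cysteine ligase (Gclc and Gclm) and glutathione synthetase (Gss) and is reduced again by glutathione reductase (Gsr), while the transferases attach it to reactive products such as those of lipid oxidation. Many of these genes are targets of the transcription factor NRF2, and aminoglycosides such as kanamycin are known to raise reactive oxygen species in hair cells.

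The table holds raw counts of Ensembl transcripts, and those of a gene were added up. Library totals lay between 14418480 and 15549319 counts in control and between 12480876 and 14841769 in degenerated libraries. Levels are given as CPM, counts scaled to a common library size after normalization. The table lists 46% of the annotated transcripts in 65535 rows, a number that equals a spreadsheet limit, so it may be incomplete, and a missing gene or transcript says nothing about expression. Values of a gene cover its listed transcripts only, and for 12 of the 36 members tested below, the principal transcript (the one annotated as encoding the main protein form) is not among them: Gpx1, Gpx2, Gpx4, Gss, Gstk1, Gstm2, Gsto1, Gstt1, Gstt3, Prdx1, Prdx4 and Prdx6. Their values describe minor or partly spliced transcripts.

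The samples are labelled as SGN but are whole modiolus, and markers of several cell types moved with the groups. The summed level of 13 neuron markers was 11267 to 14609 CPM in control and 6643 to 9926 CPM in degenerated libraries, where Syt1 stayed under 1 CPM in every library. Of the 12 tested, 10 were lower and 2 higher, so the markers did not all fall together. Log2 fold changes, degenerated minus control, were -1.07 for Calb2, -0.73 for Nefh, -0.04 for Tubb3, 0.29 for Gata3 and 1.3 for Prph. Hair cell markers summed to 829 to 1154 CPM against 564 to 710 CPM. Of these, 7 of 8 tested genes were lower and 3 were called by the criteria given below. Over all genes tested, 50.3% were lower and 2.73% were called. Myo7a, Myo6, Otof, Pou4f3 and Tmc1 overlapped between the groups, and the called genes were Ocm, Slc26a5 and Cib2. Ocm, the oncomodulin of outer hair cells, averaged 154 ± 17.0 against 2.69 ± 1.67 CPM (SD, n = 3 each). Slc26a5, the motor protein prestin, averaged 11.2 ± 4.31 against 0.315 ± 0.178 CPM. Markers of bone summed to 901 to 1420 CPM against 291 to 597 CPM, with 7 of 7 lower. Red blood cell markers varied widely, from 6400 to 41487 CPM in control and from 3481 to 16757 CPM in degenerated libraries, as did neutrophil markers, from 248 to 13358 CPM and from 625 to 4615 CPM. Control replicate 1 held fewer erythroid markers than degenerated replicates 1 and 3 and the fewest neutrophil markers of the 6 libraries. Macrophage markers summed to 931 to 2827 CPM and 1724 to 3132 CPM and were split in direction, with 4 of 8 tested genes higher and 4 lower. Called higher were 2 of them, the complement genes C1qb (183 ± 17.4 against 294 ± 41.4 CPM) and C1qc (165 ± 12.6 against 255 ± 41.1 CPM), and 0 were called lower. Over all genes tested 2.01% were called higher. Schwann cell markers summed to 5515 to 9679 CPM and 4848 to 7661 CPM. Skeletal muscle markers reached 403 CPM in control replicate 3 and at most 7.43 CPM in any other library. In such bulk samples fewer cells of a type and less RNA per cell cannot be told apart, and the part of these shifts in the results below was not tested unless a value is given.

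Of the 43 measured members, 36 had enough counts to be tested with edgeR's quasi-likelihood test. At an unadjusted p under 0.01 and an absolute log2 fold change above 0.2, 1 member was called, the glutathione transferase Gstm6, which was lower. That is 2.78% of the members, against 2.73% of all 14118 genes tested, so the share of called members did not stand apart from the background. Over all genes tested 2.01% were called higher and 0.715% lower. After Benjamini-Hochberg adjustment over all genes, edgeR left 0 members and 0 of all genes tested with an adjusted p under 0.05, the smallest value among the members being 0.359. Over all genes DESeq2 gave 383 such genes and edgeR's exact test 115, and among the members DESeq2 gave 1 (Gstm6) and the exact test 0. At an unadjusted p under 0.05 there were 5 members (13.9%), against 9.68% of all genes. In 7 members the ranges of both groups were apart, 6 with the degenerated libraries below and 1 above, or 19.4% of the members against 17.7% of all genes. Over all genes 7.37% had every degenerated library below and 10.3% above the controls. At a mean of at least 50 CPM, 2 of 14 members and 626 of 4279 genes had an unadjusted p under 0.05 in edgeR's test. There, 3 of 14 members and 988 of 4279 genes did not overlap, so at like levels the members did not stand above the background.

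Most fold changes of the members were small and negative. The log2 fold change, degenerated minus control, was below 0 in 26 of 36 members, or 72.2%, and its median was -0.19, where 50.3% of all genes were below 0 and their median was -0.003. Among the 24 members with a principal transcript listed, 20 were lower, with a median of -0.245. Relative to the mean of the 6 libraries, the median over the 36 members on the log2(CPM + 1) scale was 0.014, 0.157 and 0.148 in control replicates 1, 2 and 3 and 0.032, -0.062 and -0.112 in the degenerated replicates. Control replicate 1 thus lay inside the range of the degenerated libraries. Over the 24 members with a principal transcript listed it lay above them, with medians of 0.014, 0.268 and 0.238 in control and -0.047, -0.103 and -0.141 in degenerated libraries. Control replicate 1 was also the library with the lowest value for 11 of the 36 members, while control replicate 2, which held the most red blood cell and neutrophil markers, had the highest value for 13. Without control replicate 2 the members' median was -0.13.

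**Figure D1:**
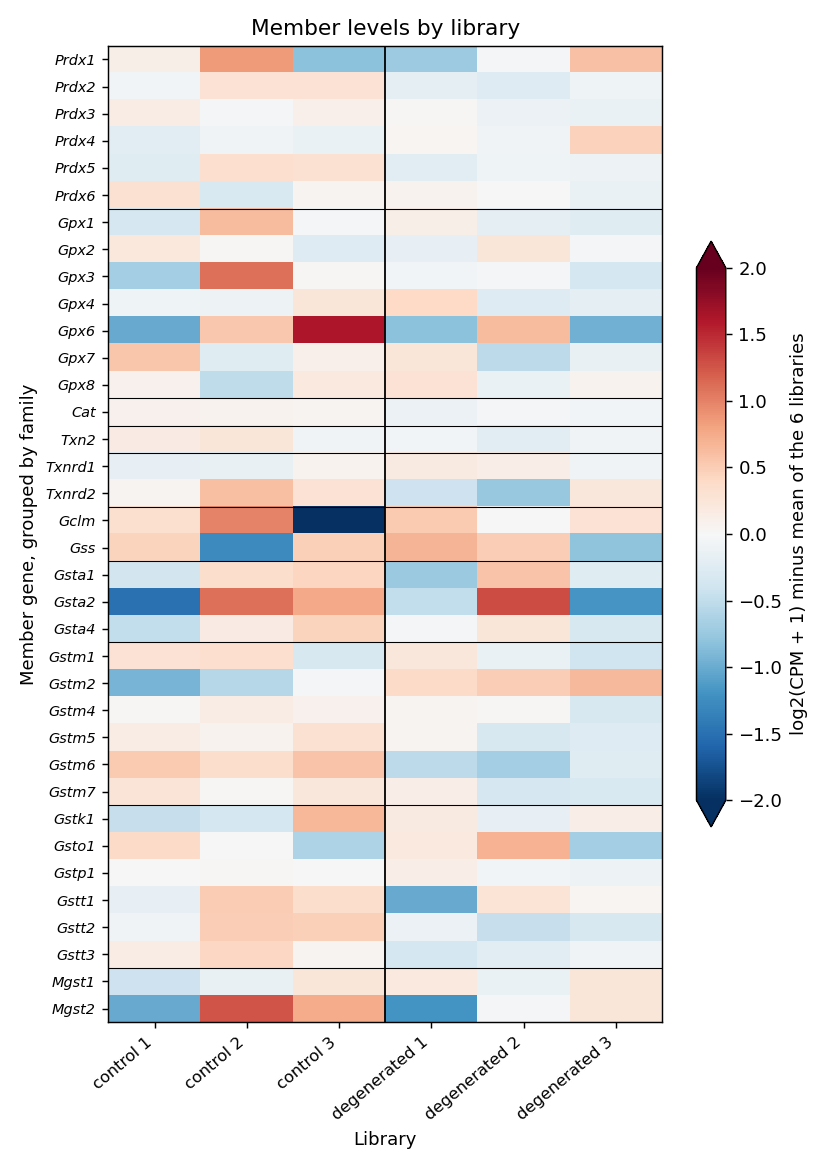
Level of each of the 36 tested members in each library, as log2(CPM + 1) minus the gene's mean over the 6 libraries (colour), with members grouped by family in rows and libraries in columns. Gclm (low) and Gpx6 (high) stand out in control replicate 3, while Gstm6 and Gstm2 differ between the groups in all libraries.

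**Figure D2:**
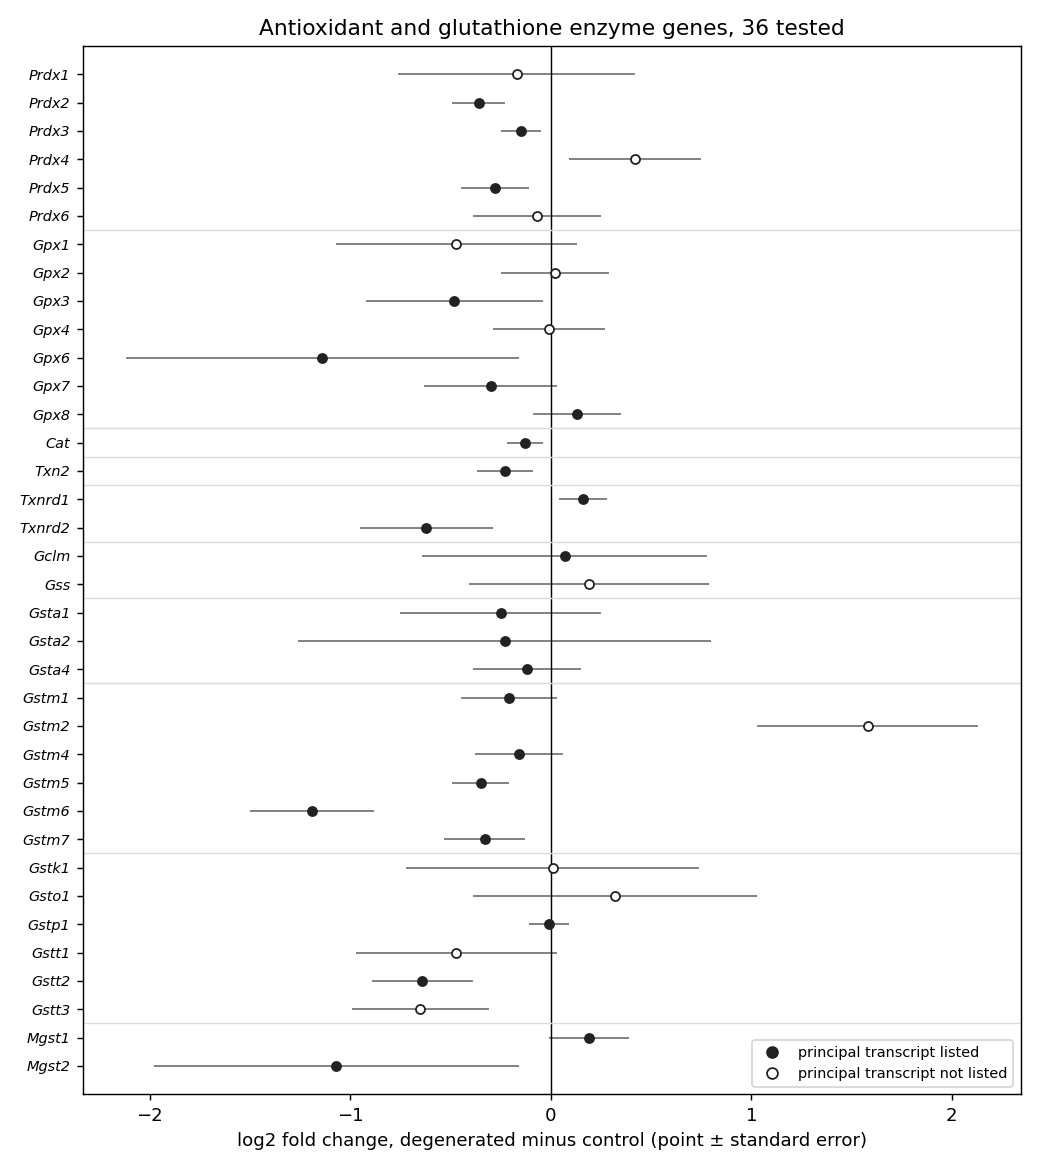
Log2 fold change, degenerated minus control, with its standard error for the 36 tested members by family. Filled points have a principal transcript listed, open points do not. Of all points, 26 lie below 0, and Gstm6 (-1.19) is the only member called.

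The peroxiredoxins, thiol enzymes that reduce hydrogen peroxide, included the most abundant tested member per length. This order covers listed transcripts only, and some members had no transcript or no principal transcript listed. Prdx2 (chromosome 8 of GRCm38 from 84969587 to 84974834) encodes a cytosolic peroxiredoxin that is a major protein of red blood cells and is also present in neurons. It had 432, 546 and 548 CPM in control replicates 1, 2 and 3 and 393, 374 and 421 CPM in the degenerated replicates. Every degenerated library was below every control, the nearest pair being degenerated replicate 3 and control replicate 1. Its log2 fold change was -0.36 ± 0.13 (SE), with an unadjusted p of 0.0307 and, by edgeR, an adjusted p of 0.463, so it was not called. Without control replicate 1 it was -0.47 (unadjusted p 0.0054) and met the criteria.

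All 7 tested erythroid markers had negative log2 fold changes, from -1.74 to -1.03, and Hbb-bs, a beta globin gene, had 2331, 15663 and 8474 CPM in control and 2702, 1341 and 5811 CPM in degenerated libraries. The summed erythroid markers were 6400, 41487 and 21478 CPM in control replicates 1, 2 and 3 and 7224, 3481 and 16757 CPM in the degenerated replicates. Among the degenerated libraries Prdx2 had the same order as this sum. Among the controls it was lowest where the sum was lowest, and control replicate 2 had 6.48 times the sum of control replicate 1 and 1.26 times its Prdx2. Other libraries did not follow this order. Control replicates 2 and 3 had 546 and 548 CPM of Prdx2 at sums of 41487 and 21478 CPM. Degenerated replicate 3 had a higher sum than control replicate 1 (16757 against 6400 CPM) but less Prdx2 (421 against 432 CPM). The part of red blood cells in the Prdx2 values was not tested.

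**Figure D3:**
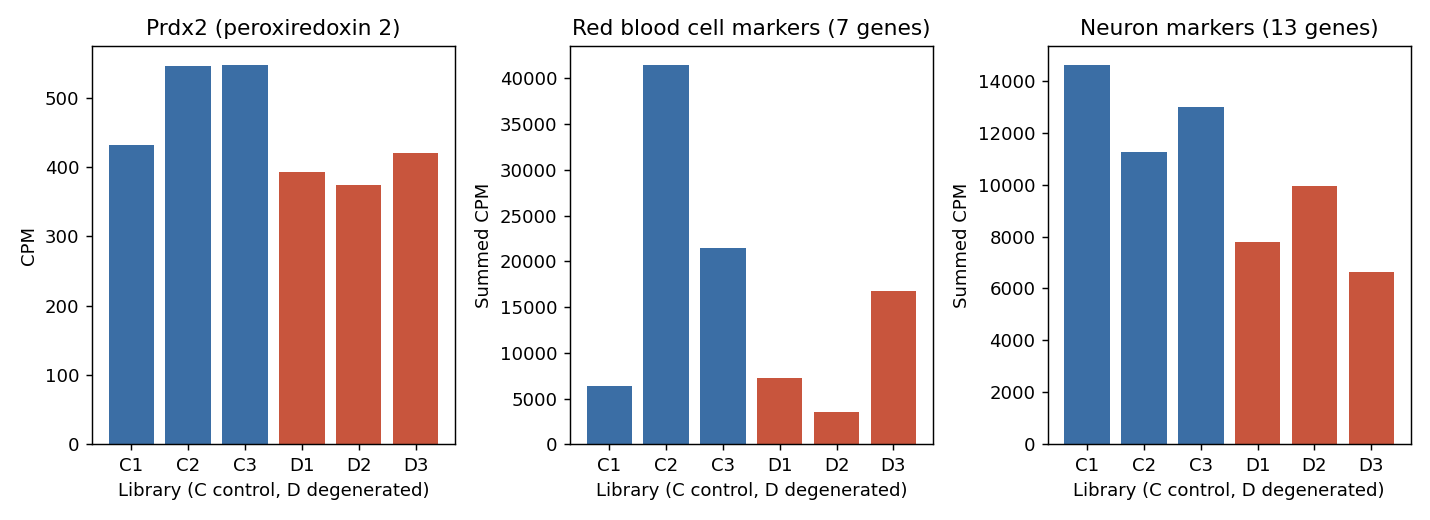
Prdx2 in CPM (left), the summed CPM of 7 red blood cell markers (middle) and of 13 neuron markers (right) in each library, with 1 bar per library and both groups coloured. Prdx2 and the neuron sum are lower in all 3 degenerated libraries, and within each group Prdx2 is lowest in the library with the lowest erythroid sum. Between the groups, degenerated replicate 3 has a higher erythroid sum than control replicate 1 but less Prdx2.

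The mitochondrial peroxiredoxin Prdx3, with its only annotated transcript listed, was close to constant, with 220.1, 197 and 214 CPM in control and 202, 183 and 182 CPM in degenerated libraries. The groups overlapped, since degenerated replicate 1 exceeded control replicate 2, and the log2 fold change was -0.15 ± 0.10 (SE). Prdx5, found in mitochondria, peroxisomes and cytosol, had 274, 407 and 398 CPM in control and 279.6, 304 and 303 CPM in degenerated libraries. Control replicate 1 was the lowest library, and without it Prdx5 also met the criteria (log2 fold change -0.46, unadjusted p 0.00519). Prdx5 was named after its values were seen. Prdx1, Prdx4 and Prdx6 were measured through minor transcripts at mean levels of 2.16 to 9.84 CPM in controls, with log2 fold changes between -0.17 and 0.42 and unadjusted p of at least 0.252.

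Catalase, the peroxisomal enzyme, was the member with the least variation between libraries. Cat (chromosome 2 from 103453849 to 103485160, both annotated transcripts listed) had 237, 234 and 232 CPM in control and 207, 220.0 and 215 CPM in degenerated libraries. The highest library exceeded the lowest by 1.14 times. All degenerated libraries were below all controls, with a log2 fold change of -0.13, a standard error of 0.09 and an unadjusted p of 0.176 in edgeR's test.

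Among the glutathione peroxidases 7 were tested, 5 with negative and 2 with positive log2 fold changes, and none of the 7 was called or had groups that did not overlap. Gpx3 (chromosome 11 from 54902453 to 54910377), the secreted plasma form, was the most abundant of them per length. It had 242, 840 and 396 CPM in control and 376, 380.5 and 304 CPM in degenerated libraries. The controls spanned the degenerated libraries on both sides, and the log2 fold change was -0.48 ± 0.44 (SE). Its sign rested on control replicate 2, without which it was 0.14. Gpx8, a peroxidase of the endoplasmic reticulum, averaged 97.3 ± 23.5 CPM in the controls and 107 ± 15.6 CPM after degeneration (SD, n = 3 each), with a log2 fold change of 0.13. Gpx7, its closest relative in the same compartment, had 19.1 ± 5.53 and 15.5 ± 4.37 CPM. Gpx6, an enzyme known from olfactory tissue, had 1.19, 5.38 and 12.4 CPM in control and 1.505, 5.85 and 1.26 CPM in degenerated libraries, with no order between the groups. For Gpx1 and Gpx4, the widely expressed cytosolic and phospholipid peroxidases, only minor transcripts were listed, at 1.13 and 17.0 CPM in controls, and 74.1% of the 50-base words of the listed Gpx4 transcripts also occur in transcripts of other genes, mainly Gpx4-ps2. Gpx5 had 0 counts in all 6 libraries, which allows up to 3 counts in each.

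The thioredoxin system was measured in its mitochondrial part and in 1 cytosolic enzyme. Txn2, mitochondrial thioredoxin, had 80.4, 85.3 and 68.1 CPM in control and 69.3, 61.4 and 68.1 CPM in degenerated libraries, a log2 fold change of -0.23 ± 0.14 (SE) and an unadjusted p of 0.146. Txnrd2, the mitochondrial reductase that recharges it, had 24.6, 36.4 and 28.8 CPM against 17.4, 13.5 and 27.7 CPM. Degenerated replicate 3 overlapped the controls, and the log2 fold change was -0.62 ± 0.33 (SE). Txnrd1, the cytosolic reductase and an NRF2 target, had 175, 177 and 206 CPM in control and 222, 214 and 186 CPM in degenerated libraries. It was one of 10 members above 0, with a log2 fold change of 0.16, a standard error of 0.12 and overlapping groups.

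For Txn2 the transcripts of the gene did not vary together. The transcript of 1778 bases (ENSMUST00000109747) took 31.1%, 43.1% and 6.84% of the listed counts of Txn2 in control replicates 1, 2 and 3 and 5.63%, 7.22% and 19.9% in the degenerated replicates. Tested as a transcript of its own, it had a log2 fold change of -1.64 ± 0.89 (SE), and control replicate 3 was as low as the degenerated libraries. The principal transcript of 1298 bases had a log2 fold change of -0.07. A test of each listed transcript, added after the gene values were seen, covered 68 transcripts of the 36 members and called 0 of them, with 5 at an unadjusted p under 0.05 in edgeR's test, where 1.79% of all 26161 transcripts tested were called and 7.55% had a p under 0.05.

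The genes of glutathione synthesis and recycling gave little ground for a comparison. Gclm, the modifier subunit of glutamate-cysteine ligase and an NRF2 target, had 141, 225 and 24.9 CPM in control and 162, 112 and 137 CPM in degenerated libraries. Control replicate 3 was far below the other 5 libraries, its principal transcript having 379 counts there and 1563 to 3151 elsewhere. The log2 fold change was 0.07 ± 0.71 (SE), and -0.43 without that library. Of the coding transcripts listed for Gss, ENSMUST00000130881 had the most counts. It had 400, 0 and 480 counts in control and 427, 324 and 0 counts in degenerated libraries. A drop to 0 thus appeared in 1 library of each group. The other, ENSMUST00000126322, had 1, 12 and 0 counts against 0, 6 and 0. Of 98 listed transcripts of the tested members, 5 had 0 counts in one library and at least 50 in another.

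Members of this group below the limit for testing were Gclc, with 17 counts over the 3 control and 25 over the 3 degenerated libraries, and Gsr, with 4 and 83. Of the latter, 82 counts lay in degenerated replicate 3, in non-coding transcripts. Hmox1, heme oxygenase 1, which breaks down heme and is strongly induced by oxidative stress, had 12 and 21 counts. For these 3 genes the principal transcript is not listed, and a change was not detectable at this depth. Sparse counts were also seen for Gsta3 (19 and 10 counts), Gsto2 (4 and 22) and Gstt4 (9 and 16).

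The glutathione transferases made up 17 of the tested members and 5 of the 7 whose groups did not overlap, or 29.4% of the transferases against 17.7% of all genes. This share rests on 5 genes. Among them Gstm2 was higher after degeneration, Gstm2 and Gstt3 had few counts, and Gstt2 overlapped when compared per length. Of the mu class, 6 genes were tested, and they lie in a cluster on chromosome 3 between 107895821 and 108044894. Gstm6 (chromosome 3 from 107938847 to 107943749, 4 of 6 transcripts listed) fell from 6.13 ± 0.545 CPM in the controls to 2.68 ± 0.580 CPM after degeneration (SD, n = 3 each), or by library from 6.29, 5.52 and 6.57 CPM to 2.53, 2.18 and 3.31 CPM. The groups were well apart, the highest degenerated library lying below the lowest control. Its log2 fold change was -1.19 ± 0.31 (SE), with an unadjusted p of 0.00771 and, by edgeR, an adjusted p of 0.359. DESeq2 gave an adjusted p of 0.0199, and over 15 alternative settings the adjusted p ranged from 0.0199 to 0.672. The value rests on 78 to 103 counts per control library and 31 to 42 per degenerated library, 9.62% of its 50-base words also occur in other genes (most in Gstm3), and the criterion on p was missed whichever library was left out (unadjusted p 0.0107 to 0.0309, log2 fold change -1.38 to -1.07).

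Its neighbours differed in size and direction. Gstm5 (107895821 to 107898686) had 130.005, 123 and 144 CPM in control and 121, 93.0 and 97.7 CPM in degenerated libraries. All degenerated libraries were below the controls, by a narrow margin in degenerated replicate 1, with a log2 fold change of -0.35 and a standard error of 0.14 (unadjusted p 0.0494, adjusted p 0.516 by edgeR). Gstm7, between both genes, had 44.2, 37.1 and 43.1 CPM against 40.4, 28.9 and 29.4 CPM and overlapped. Gstm1, the most abundant tested mu class gene per length, had 212, 221 and 139 CPM in control and 205, 159 and 132 CPM in degenerated libraries. Control replicate 3 was among the low libraries, and the log2 fold change was -0.21 ± 0.24 (SE). Gstm4, with all 3 transcripts listed, had a log2 fold change of -0.16.

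Gstm2 was the 1 tested member with all degenerated libraries above the controls. It had 0.397, 0.778 and 1.595 CPM in control and 2.46, 2.75 and 3.16 CPM in degenerated libraries, a log2 fold change of 1.58 ± 0.55 (SE; unadjusted p 0.0268, adjusted p 0.444 by edgeR). These are 6, 11 and 25 counts against 36, 39 and 40, and 9.59% of its 50-base words also occur in other genes. They come from 1 transcript of 727 bases that retains an intron, 1 of 4 annotated for the gene, so the level of the coding transcript is not described by them. Without control replicate 3 the log2 fold change was 2.22 and met the criteria (unadjusted p 0.00666).

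Of the theta class, Gstt2 (chromosome 10 from 75831114 to 75837424) had 20.2, 29.997 and 29.8 CPM in control and 19.4, 15.002 and 16.8 CPM in degenerated libraries. Control replicate 1 and degenerated replicate 1 were almost equal, although the groups did not overlap, and the log2 fold change was -0.64 ± 0.25 (SE; unadjusted p 0.0389, adjusted p 0.486 by edgeR). The transcripts of the gene moved apart. The principal transcript of 2254 bases had 205, 324 and 330 counts in control and 107, 140 and 58 counts in degenerated libraries, while a coding transcript of 794 bases had 0, 9 and 2 counts against 91, 3 and 65. Per length, as TPM (counts divided by transcript length and scaled to a common total) over listed transcripts, Gstt2 was 32.8, 36.7 and 42.0 in control and 39.1, 25.9 and 39.6 in degenerated libraries, and the groups overlapped. Gstt3, measured by transcripts other than the principal one, had 2.18, 2.83 and 1.98 CPM against 1.23, 1.48 and 1.74 CPM without overlap, a log2 fold change of -0.65 (unadjusted p 0.103), and shares 34.1% of its 50-base words with the overlapping gene Gm20441.

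Gstp1, the pi class enzyme that is abundant in many tissues, had the smallest standard error of the transferases tested. It had 143, 146 and 141 CPM in control and 156, 137 and 134 CPM in degenerated libraries, with a log2 fold change of -0.01 and a standard error of 0.10. Of its 50-base words, 62.3% also occur in Gstp2, so that some of the counts may stem from that gene. Gsta4, the alpha class enzyme with high activity towards the lipid peroxidation product 4-hydroxynonenal, was the most abundant tested transferase per length. It had 192, 304 and 368 CPM in control and 262, 320 and 216 CPM in degenerated libraries, a log2 fold change of -0.12 ± 0.27 (SE), the controls spanning the other group. Gsta1 and Gsta2, which share 90.5% and 49.7% of their 50-base words with other genes, varied up to 10.9 times between libraries without an order by group. Of the membrane-bound enzymes, Mgst1 had 98.2, 118 and 155 CPM against 149.7, 119 and 154 CPM (log2 fold change 0.19, standard error 0.20). Mgst2 had 0.927, 8.28 and 5.49 CPM in control and 0.684, 2.75 and 3.55 CPM in degenerated libraries. It was lowest in control replicate 1 and degenerated replicate 1. Gstk1, Gsto1 and Gstt1, measured by transcripts other than the principal one, had log2 fold changes of 0.01, 0.32 and -0.47 with standard errors of 0.50 to 0.73.

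**Figure D4:**
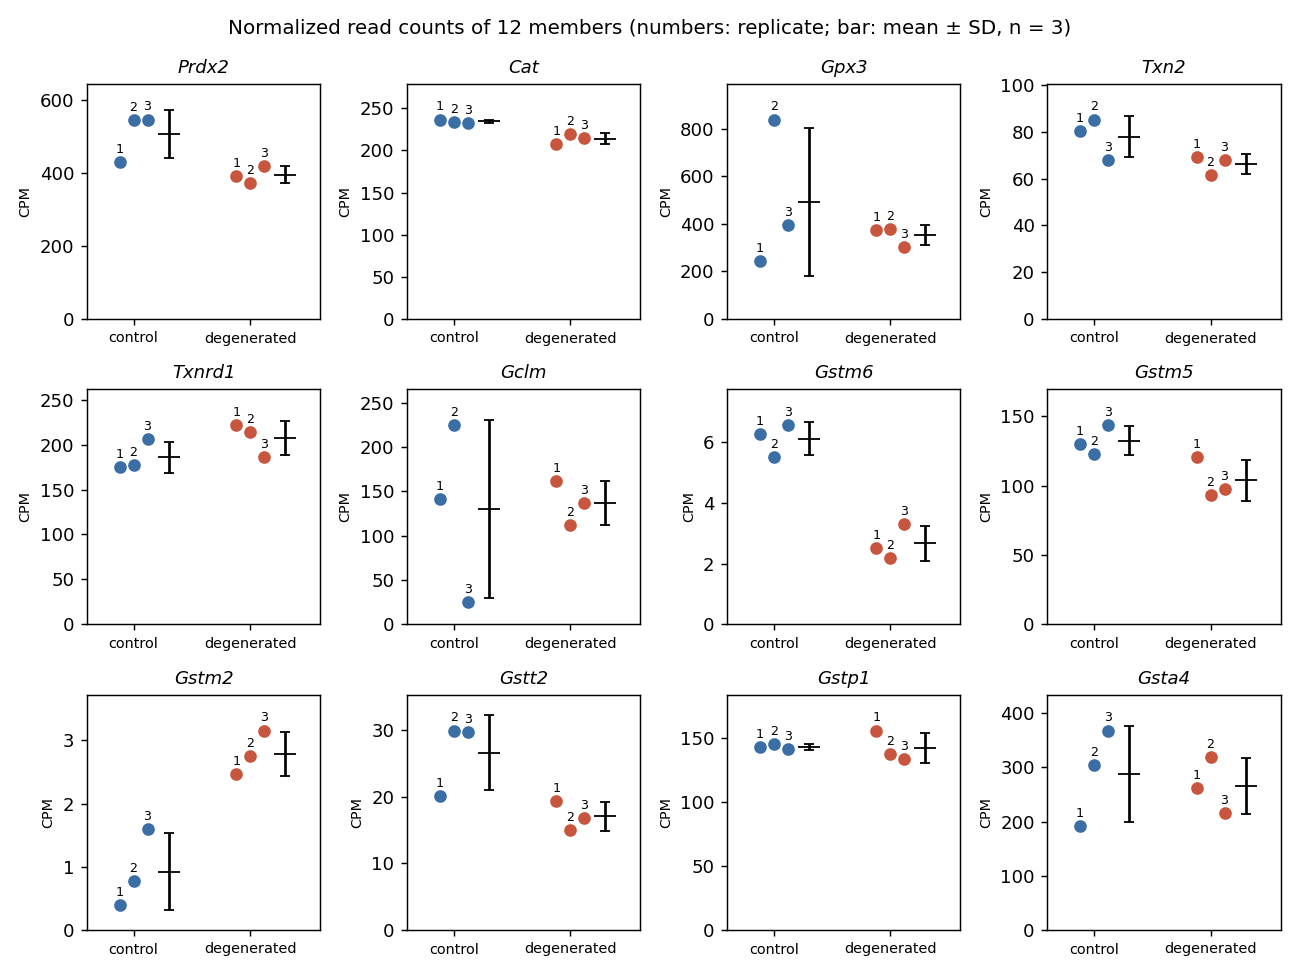
CPM of 12 members in each library, by group, with the replicate number above each point and the mean ± SD (n = 3) beside the points. Gstm6, Gstm5, Gstt2, Prdx2 and Cat are lower and Gstm2 is higher in every degenerated library, while Gpx3, Gclm and Gsta4 have controls on both sides of the degenerated libraries.

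Compared per length, the members spanned a wide range. The mean TPM over the 6 libraries was 647 for Prdx2, 580 for Prdx5, 536 for Gsta4, 497 for Gpx3 and 330.2 for Gstp1, followed by Gstm1, Prdx3, Mgst1 and Gstm5 at 263 to 249. At the lower end was Gstk1 at 1.33, measured through minor transcripts. Prdx2 averaged 702 ± 62.8 TPM in the controls and 591 ± 26.5 TPM after degeneration (SD, n = 3 each), and Prdx5 623 ± 124 and 537 ± 40.2 TPM. Prdx2 was above Prdx5 in all 6 libraries, while Prdx5 was above Gsta4, the next in order, in 4 of 6. With TPM in place of CPM, the median log2 ratio of the group means over all genes shifted from -0.004 to 0.114. Relative to that shift 26 of the 36 members were again lower, with Gstm6 at -1.18, Prdx2 at -0.36 and Gstt2 at -0.20.

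**Figure D5:**
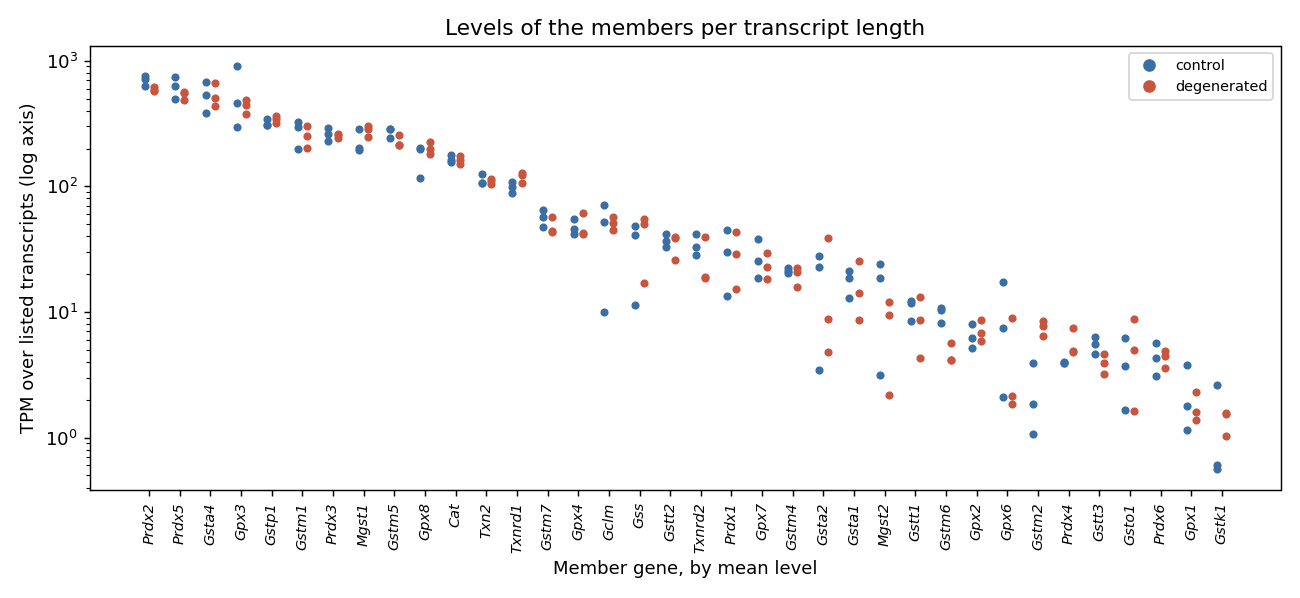
TPM over listed transcripts of the 36 tested members in each library, ordered by their mean, on a log axis (blue: control, red: degenerated). Prdx2, Prdx5, Gsta4 and Gpx3 lead, and the spread between libraries is wider among the low members, such as Gsta2, Mgst2 and Gpx6, than in Cat or Gstp1.

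Promoters were searched for the core of the antioxidant response element, TGACNNNGC on either strand, to which NRF2 binds with a small MAF protein. In RefSeq windows from 250 bases before to 50 bases after the start site (GRCm38.p6), the letters occurred in 6 of 33 tested members with a window, or 18.2%, and in 14.0% of all 27025 genes. The stretches that hold them are shown because they include the NRF2 targets Prdx1, Gclm and Txnrd1 and both Gstm5 and Gstm7. Each is written 5′ to 3′ on the strand of its gene with the matching letters in capitals, which read GCNNNGTCA where the match is on the opposite strand.
Prdx1: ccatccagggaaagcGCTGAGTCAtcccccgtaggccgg
Gclm: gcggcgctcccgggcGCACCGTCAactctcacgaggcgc
Txnrd1: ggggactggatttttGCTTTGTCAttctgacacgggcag
Mgst1: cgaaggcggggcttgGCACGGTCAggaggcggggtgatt
Gstm5: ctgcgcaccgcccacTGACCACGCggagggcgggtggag
Gstm7: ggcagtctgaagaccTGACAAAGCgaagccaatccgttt
They lie at chr4:116685451-116685489, chr3:122245408-122245446, chr10:82859099-82859137, chr6:138140456-138140494 and chr3:107895797-107895835 on the plus strand, and at chr3:107931720-107931758 on the minus strand, in the order given. The log2 fold changes of these 6 genes were -0.17, 0.07, 0.16, 0.19, -0.35 and -0.33. They went in both directions, and none was called. The windows of Gstm6, Gstm2 and Prdx2 do not hold these letters.

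Other genes of these pathways were taken from 4 lists, whose counts stand beside 2.73% called and 50.3% lower over all genes tested. Of 24 genes for NRF2 regulators, further NRF2 targets and NADPH supply, 21 were tested, 14 were lower and 1 was called, Taldo1, which encodes transaldolase of the pentose phosphate pathway. Taldo1, with 2 of 5 transcripts listed, fell from 13.1, 12.7 and 14.2 CPM to 7.18, 4.58 and 5.13 CPM (log2 fold change -1.24, standard error 0.28, adjusted p 0.32 by edgeR). Nfe2l2, the gene of NRF2, had 8.80, 9.83 and 5.36 CPM in control and 14.98, 6.62 and 8.60 CPM in degenerated libraries. Slc7a11, the cystine transporter that feeds glutathione synthesis, had 321, 198 and 249.7 CPM against 418, 288 and 263 CPM. Both genes overlapped between the groups. Nfe2l2 and Slc7a11 were named after their values were seen.

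Of 16 further enzymes that use or cycle glutathione, 14 were tested, 8 were lower, and Chac1 was called. Chac1 encodes an enzyme that degrades glutathione and is induced by the integrated stress response. With its only transcript listed, it rose from 6.75, 5.94 and 6.25 CPM to 18.5, 14.8 and 13.4 CPM, a log2 fold change of 1.30 ± 0.25 (SE; edgeR, adjusted p 0.274). The lowest degenerated library was above the highest control. The other gene of this list with an unadjusted p under 0.05 in edgeR's test was Lancl1, which was lower and not called. It had 468, 396 and 402 CPM in control and 311, 381 and 261 CPM in degenerated libraries, without overlap (log2 fold change -0.41, unadjusted p 0.0459). Of 20 oxidant-producing enzymes, 10 were tested, 7 were lower and Nos1 was called. Nos1, neuronal nitric oxide synthase, has 3 of 7 transcripts listed. Over these it rose from 127, 70.0 and 99.5 CPM to 289, 191 and 332 CPM (log2 fold change 1.45, standard error 0.30, adjusted p 0.291 by edgeR). Nos3, the endothelial form, had 1.79, 7.43 and 7.59 CPM in control and 1.16, 1.83 and 1.4996 CPM in degenerated libraries, with a log2 fold change of -1.90 (unadjusted p 0.0202), and was not called. Ncf1, a subunit of the phagocyte NADPH oxidase, had 28.4, 247 and 130.5 CPM in control and 46.2, 58.7 and 115 CPM in degenerated libraries (log2 fold change -0.88). Other genes of phagocytes on this list were Mpo, which the neutrophil list also holds, at -1.52, Ncf4 at -1.51, Rac2 at -1.03 and Cyba at -0.62. All 5 had their highest level in control replicate 2, as did the neutrophil markers, whose part in the median of this list was not tested. Of 20 glutaredoxins and other thiol redox helpers, 14 were tested, 8 were lower and 0 were called in edgeR's test. The only one with an unadjusted p under 0.05 was Msrb2, a mitochondrial methionine sulfoxide reductase, with 31.4, 36.01 and 35.7 CPM in control and 24.7, 24.7 and 24.0 CPM in degenerated libraries (log2 fold change -0.49, unadjusted p 0.023). Lancl1, Nos3, Ncf1, Mpo, Ncf4, Rac2, Cyba and Msrb2 were named after their values were seen. The medians of the 4 lists, in the order above, were -0.095, -0.105, -0.752 and -0.137, against -0.003 over all genes tested, the third being set among the phagocyte genes named above.

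The precision of the members set what could be seen. For the 14 tested members with a mean of at least 50 CPM, the standard error of the log2 fold change had a median of 0.16 and lay between 0.09 in Cat and 0.71 in Gclm. For the other 22 it had a median of 0.42. Exons of Prdx2, Prdx5, Gstm5, Txnrd2, Gclm and Gss overlap exons of genes on the opposite strand by 173 to 409 bases, and no source used here states whether the counting used strand.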

How the data were processed

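Total RNA libraries of mouse modiolus (3 control, 3 degenerated) were analysed from 1 deposited table of raw counts, which the authors made per Ensembl transcript without normalization. The submitters' processing notes name Bowtie 0.12.2 and the builds mm8 and mm10, whereas the study's methods name Hisat2 and StringTie, and which of them made the counts is unclear. No source used here states the strand setting of the counting. Of 65535 transcripts (46% of those annotated), 65272 matched GENCODE M21 (GRCm38) and were summed per gene, and the remaining 263 held 0.125% of the counts. Genes were filtered with filterByExpr, normalized by TMM and tested with edgeR 4.0.16 (R 4.3.3; quasi-likelihood, robust), which was tested on simulated data. A gene was called at an unadjusted p under 0.01 and an absolute log2 fold change above 0.2, criteria that the study states for another comparison, of knockout with wild-type mice. TPM and shared 50-base words were computed over listed transcripts. Exact permutation of 3 against 3 libraries cannot go below p = 0.1 and was not used.

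Named with every library's value were members with an unadjusted p under 0.05, members whose groups did not overlap, the member of each family with the highest mean TPM, and up to 3 called genes of each pathway list. Other members were named for their role or after their values were seen. The members and lists were chosen with earlier results of these data known. Alternatives were other normalizations, filters and tests (DESeq2 1.42.0, limma 3.58.1), a replicate block, subsets of transcripts and each library left out. A test per transcript and TPM scaling were added after seeing the data.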

Additional observations from a re-analysis of the deposited data

How the results depend on the processing

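Median log2 fold changes of the members stayed between -0.25 and -0.13 under the count-based alternatives (-0.22 to -0.13 with 1 library left out) and moved to -0.045 with TPM in place of CPM, where the median of all genes was 0.114. The 1 member called lower became 0 with the replicate block and with protein-coding transcripts only. With 1 library left out it became 0 to 2, the 2 being Prdx2 and Prdx5 without control replicate 1. Among genes that had every transcript listed, 5 members were tested and 0 were called. Gstm6, with 4 of 6 transcripts listed, was not among these 5, so this setting could not test its call. Members called higher numbered 0 to 1 with 1 library left out. Over all genes 284 were called higher and 101 lower, against 479 and 306 with DESeq2, 160 and 58 with the replicate block, 82 and 53 with genes that had every transcript listed, 184 higher with protein-coding transcripts only, and 144 to 339 and 76 to 158 with 1 library left out. Gstm6 was called under 7 of 15 alternatives and changed by -1.21 on the log2 scale (unadjusted p 0.0198) with the block. Same-numbered libraries did not deviate together (correlations of 0.16, -0.0905 and 0.0674), so the numbers were not taken as pairs. With 1 library left out, the log2 fold change ranged from -0.43 to 0.72 for Gclm, -0.82 to 0.14 for Gpx3, -0.35 to 0.08 for Gsta4 and -0.09 to 0.03 for Gstp1, and thus changed sign. The cause of these changes was not tested. The median standard error was 0.42 for the 22 members under 50 CPM and 0.16 for the other 14. Among those 14, Gclm had 0.71 and Gpx3 0.44. The part of depth in these errors was not tested. Members without a principal transcript listed are described by their other transcripts only.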
